A study of Mus musculus with 10 samples.

Results

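Liver sinusoidal endothelial markers were followed as a set of 10 genes, Stab1, Stab2, Lyve1, Clec4g, Pecam1, Kdr, Oit3, Gpr182, Dnase1l3 and Fcgr2b, in bulk RNA sequencing of mouse liver. Their rows were picked by symbol from a count table of 46071 genes, and all 10 were found and passed the filter on low counts. The 10 libraries were 3 from offspring of a LIRKO father and a control mother (FL), 3 from offspring of a LIRKO mother and a control father (ML), and 4 from offspring of 2 control parents (Control). A LIRKO parent carried floxed insulin receptor alleles (IRlox/lox) with one copy of Albumin-Cre, which deletes the receptor in hepatocytes and not in endothelial cells. Control parents carried the same floxed alleles without Cre and had been bred as such for 4 generations. The floxed allele is thus common to the parents of all 3 groups. Whether the offspring inherited Cre, and their sex, age, litter and diet, are not in the labels, which also do not say outright that each library is a separate animal. The comparison asks whether a parent's hepatic loss of the insulin receptor is followed by a difference in the offspring's liver.

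Liver sinusoidal endothelial cells line the hepatic capillaries. They are thin, perforated by open fenestrae and rest on little basement membrane, so that plasma reaches the hepatocytes directly. They are also the main scavenger cells of the blood, taking up modified lipoproteins, hyaluronan, collagen fragments and small immune complexes through dedicated endocytic receptors. Hepatocytes supply VEGF, which acts on the endothelial receptor encoded by Kdr and helps to maintain the fenestrated state.

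The 10 genes lie on 7 chromosomes of GRCm38 and all 10 are on the minus strand. Stab2 (chromosome 10, 86841198 to 87008025), Oit3 (chromosome 10, 59422958 to 59441778) and Gpr182 (chromosome 10, 127747276 to 127751732) share chromosome 10. Stab1 (chromosome 14, 31139013 to 31168641) and Dnase1l3 (chromosome 14, 7964533 to 7994573) share chromosome 14. Lyve1 is on chromosome 7 (110850607 to 110863239), Clec4g on chromosome 8 (3707064 to 3720651), Pecam1 on chromosome 11 (106654217 to 106750628), Kdr on chromosome 5 (75932827 to 75978458) and Fcgr2b on chromosome 1 (170958617 to 170976547). Their summed exon lengths ran from 2462 bp for Clec4g to 10288 bp for Stab1. Genes on the opposite strand overlap 5 of them, sharing 112 exonic bases with Stab1, 141 with Stab2, 146 with Clec4g, 74 with Gpr182 and 155 with Fcgr2b. Whether the counting used strand is not given in the sources used here, so reads in those bases are uncertain. Fcgr2b also shares much of its extracellular sequence with its neighbour Fcgr3, and reads could be split between them.

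RefSeq promoters were at hand for 5 of the 10 genes. The 3 whose start lay within 3 bp of the GENCODE gene start are shown, since they belong to the longest gene, the shortest gene and the VEGF receptor, whose levels followed different courses over the libraries. Each run is the 250 bases before the start on the minus strand of GRCm38.p6, with 2 kinds of word in capitals on either strand. The ETS words, the core bound by ETS factors, were AGGAAG and CGGAAG. The GATA words, the core bound by GATA factors, began with AGATA or TGATA and ended in A or G. They cover chr14:31168642-31168891 for Stab1, chr8:3720652-3720901 for Clec4g and chr5:75978456-75978705 for Kdr.
Stab1: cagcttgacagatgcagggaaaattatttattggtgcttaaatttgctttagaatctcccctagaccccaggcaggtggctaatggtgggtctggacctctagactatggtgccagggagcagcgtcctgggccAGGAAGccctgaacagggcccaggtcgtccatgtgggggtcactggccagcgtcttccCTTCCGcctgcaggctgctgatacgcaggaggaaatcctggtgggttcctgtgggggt
Clec4g: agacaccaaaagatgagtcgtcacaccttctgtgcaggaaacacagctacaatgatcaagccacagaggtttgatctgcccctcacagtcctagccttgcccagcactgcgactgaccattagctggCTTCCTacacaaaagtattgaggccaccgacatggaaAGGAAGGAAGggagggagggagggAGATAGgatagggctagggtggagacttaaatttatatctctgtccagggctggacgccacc
Kdr: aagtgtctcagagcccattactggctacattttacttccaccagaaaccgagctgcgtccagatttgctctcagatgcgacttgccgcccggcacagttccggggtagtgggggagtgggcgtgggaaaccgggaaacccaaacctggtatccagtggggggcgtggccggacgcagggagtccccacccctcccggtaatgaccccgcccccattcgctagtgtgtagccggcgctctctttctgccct
The Stab1 window held 2 ETS words, beginning 116 and 58 bases before the start. The Clec4g window held 3 ETS words, 2 of which overlap, and 1 GATA word, AGATAG, beginning 62 bases before the start. The Kdr window held neither kind of word. Over all 32851 RefSeq promoter windows of this length, 39.2% held an ETS word and 26.5% a GATA word, so these matches are a description only.

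Total counts were 23192571 to 31116742 in FL, 26614915 to 34568205 in ML and 18655506 to 39379940 in Control. All libraries had the liver's signature, with the hepatocyte gene Alb at 39214 CPM or more (counts scaled to library size in the usual CPM unit, with TMM factors throughout). Replicate libraries differed by more than counting noise in every group. ML 9 and Control 1 stood apart on the first principal component, which held 53.2% of the variance. Genes with less than 1000 bp of exon had a median log2 deviation from their mean over the libraries of 1.67 in ML 9 and 0.51 in Control 1. Genes with more than 5000 bp lay below their means, with medians of -0.61 in ML 9 and -0.29 in Control 1. In the other 8 libraries these medians ran from -0.56 to 0.34 for short genes and from -0.14 to 0.35 for long ones, and FL 5, at -0.56 and 0.35, lay as far from 0 as Control 1 in the opposite direction. Values that moved most without ML 9 and Control 1 are also given without both. In bulk liver RNA, fewer endothelial cells and less RNA per endothelial cell cannot be told apart.

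Per kilobase of exon, Clec4g had the highest level of the set, at 15.6 ± 10.8 CPM per kb (SD over 10 libraries). A group of 4 genes followed, Dnase1l3 at 7.33 ± 2.42, Oit3 at 7.15 ± 0.97, Fcgr2b at 6.80 ± 1.46 and Gpr182 at 5.93 ± 2.37 CPM per kb. Below them were Stab2 at 3.66 ± 1.24, Kdr at 3.50 ± 0.59, Stab1 at 3.10 ± 1.99, Lyve1 at 2.74 ± 1.40 and Pecam1 at 2.20 ± 0.66 CPM per kb. Neighbours in this order differed by less than the larger of their SDs. The gaps from Clec4g to Dnase1l3 and from Gpr182 to Stab2 were larger than the smaller SD. These SDs are between libraries, and all genes were measured in the same libraries, so they do not test the order. Exon length here sums every annotated exon of a gene, so genes with long rare exons have understated levels per kb.

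Stab1 and Stab2 encode stabilin-1 and stabilin-2, the large scavenger receptors that take up modified lipoproteins, and stabilin-2 is the main hyaluronan clearance receptor. Stab1 had 31.7, 40.2 and 19.4 CPM in FL, 17.0, 32.5 and 12.7 CPM in ML, and 12.9, 73.1, 20.4 and 59.2 CPM in Control. Its widest spread was thus among the controls, with Control 2 and Control 4 above every FL and ML library and Control 1 about as low as ML 10. Stab2 had 32.7, 35.0 and 24.3 CPM in FL, 24.2, 34.3 and 15.8 CPM in ML, and 23.8, 50.6, 31.3 and 48.1 CPM in Control. Control 2 and Control 4 were again the highest and ML 10 the lowest, and the 3 groups overlapped for both genes. The ratio of Stab2 to Stab1 CPM within a library was 0.87 to 1.26 in FL, 1.05 to 1.42 in ML and 0.69 to 1.85 in Control.

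Lyve1 encodes a hyaluronan receptor of sinusoidal and lymphatic endothelium. It had 9.96, 5.36 and 6.44 CPM in FL, 6.30, 7.43 and 7.82 CPM in ML, and 4.27, 18.8, 7.30 and 6.26 CPM in Control. Control 2 alone stood above 10 CPM, and the other 9 libraries overlapped. Fcgr2b encodes the inhibitory Fc receptor that takes up small immune complexes in these cells, and B cells and Kupffer cells, the resident liver macrophages, express it too. It had 36.4, 31.2 and 39.9 CPM in FL, 41.4, 60.9 and 34.0 CPM in ML, and 43.7, 34.3, 37.0 and 34.6 CPM in Control. ML 9 was the highest and the other libraries lay close together in all 3 groups.

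Clec4g encodes a C-type lectin, also called LSECtin, that binds glycans on glycoproteins. It had 22.3, 28.0 and 29.3 CPM in FL, 28.9, 109 and 26.7 CPM in ML, and 56.5, 26.4, 24.0 and 32.4 CPM in Control. The 2 libraries that stood apart, ML 9 and Control 1, were its 2 highest, and the other 8 lay between 22.3 and 32.4 CPM. Relative to Stab1 in the same library, a ratio that no scaling of the library changes, Clec4g stood at 0.70, 0.70 and 1.51 in FL, 1.70, 3.35 and 2.11 in ML, and 4.38, 0.36, 1.18 and 0.55 in Control. ML lay above FL in every library, while the controls spanned both groups. Among all single genes, 16.6% lay wholly higher in FL than in ML and 15.1% wholly lower. The share among ratios of genes was not computed. The ratio sets the shortest member, with 2462 bp of exon, against the longest, with 10288 bp. Over all genes with less than 1000 bp, the median log2 deviations were likewise higher in ML. They were -0.10, 1.67 and 0.34 in ML and -0.56, -0.26 and -0.26 in FL. The part of length in this ratio was not tested.

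**Figure D1:**
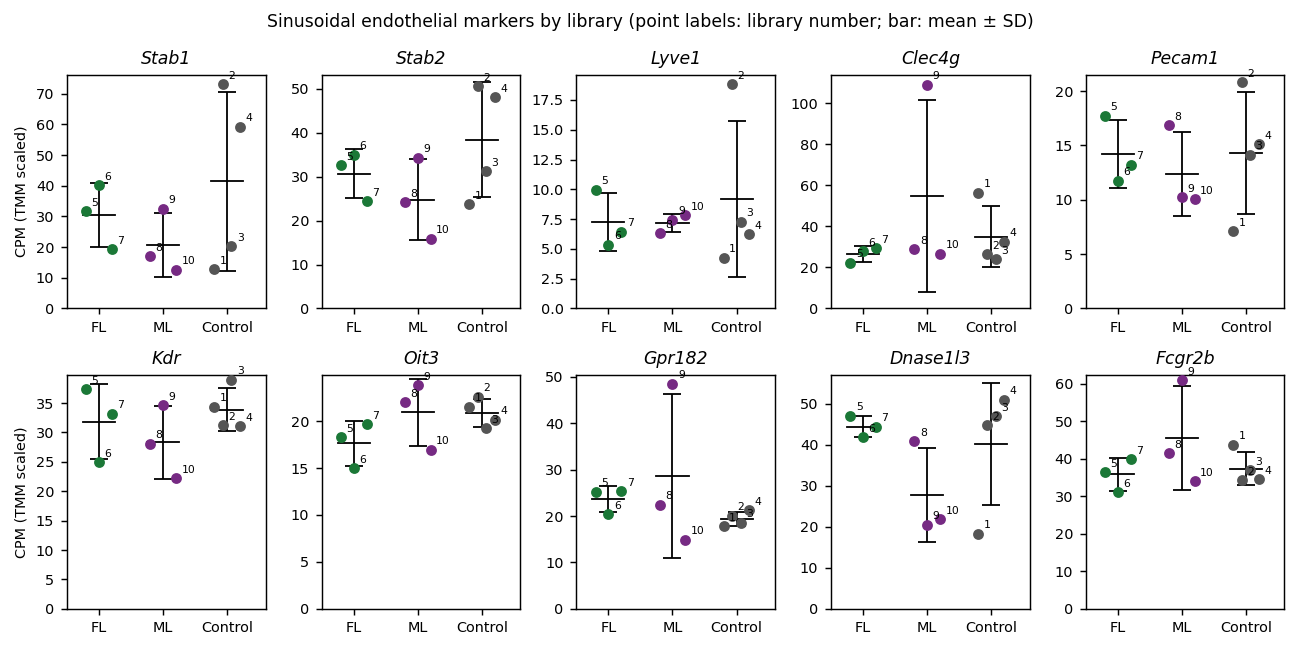
Each panel shows 1 of the 10 genes, with TMM-scaled CPM on a linear axis from 0 for every FL, ML and Control library. Points carry the library number, and bars give the mean ± SD. Clec4g reached 109 CPM in ML 9 against 22.3 to 56.5 CPM elsewhere, and Stab1 in Control spread from 12.9 to 73.1 CPM.

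Kdr encodes VEGF receptor 2, the main signalling receptor for VEGF on endothelium. It had 37.4, 24.9 and 33.2 CPM in FL, 28.1, 34.7 and 22.2 CPM in ML, and 34.4, 31.3, 39.0 and 31.0 CPM in Control. Its highest library was 1.75 times its lowest, and the groups overlapped. Gpr182 encodes an atypical chemokine receptor that removes chemokines. It had 25.2, 20.4 and 25.3 CPM in FL, 22.4, 48.6 and 14.9 CPM in ML, and 17.8, 20.1, 18.6 and 21.3 CPM in Control. ML held both its highest library, ML 9, and its lowest, ML 10.

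Pecam1 encodes the junctional adhesion molecule CD31, present on all endothelium and on platelets. It had 17.7, 11.8 and 13.2 CPM in FL, 16.9, 10.2 and 10.0 CPM in ML, and 7.12, 20.8, 14.1 and 15.1 CPM in Control. Control 1 was the lowest and Control 2 the highest, so that the controls spanned both other groups.

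Dnase1l3 encodes a secreted nuclease that digests chromatin in the blood. It had 47.1, 41.8 and 44.4 CPM in FL, 40.9, 20.5 and 21.8 CPM in ML, and 18.3, 44.8, 47.0 and 51.0 CPM in Control. Its libraries fell into a low set of ML 9, ML 10 and Control 1 and a high set of the 7 others, and FL lay wholly in the high set. Oit3 encodes a secreted zona pellucida domain protein of the liver. It had 18.3, 15.0 and 19.7 CPM in FL, 22.0, 23.8 and 17.0 CPM in ML, and 21.5, 22.6, 19.3 and 20.1 CPM in Control. Oit3 varied least of the 10, with a highest library 1.59 times its lowest.

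Against controls, none of the 10 genes passed in FL livers. The edgeR quasi-likelihood test with Benjamini-Hochberg adjustment over 14820 genes called 0 of 10 members, where 0.0135% of all genes were called. DESeq2, which called 0.351% of all genes, and limma-voom, which called 0.00675%, also called 0 members. Of the 10 members, 0 had an unadjusted edgeR p under 0.05, where 3.53% of all genes did. No member separated the FL libraries from the controls, as 2.79% of genes did upward and 2.92% downward. The log2 fold change was below 0 for 8 of 10 members, against 55.3% of all genes, with a median of -0.17 against -0.05 over all genes. Oit3 had the lowest p, at -0.24 (SE 0.25) with an edgeR adjusted p of 1.00. The 95% interval was -0.80 to 0.31 for Oit3 and -1.70 to 0.80 for Stab1, the widest of the set. Stab1, at -0.45 (SE 0.57), was at -0.02 without Control 2 and -0.74 without Control 1, and Lyve1, at -0.34 (SE 0.47), was at 0.28 without Control 2.

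Against controls, none of the 10 genes passed in ML livers. edgeR called 0 of 10 members, where 0% of all genes were called. DESeq2 called 0.31% of all genes and limma-voom 0%, and both called 0 members. An unadjusted edgeR p under 0.05 was reached by 0 of 10, where 16.1% of all genes reached it. No member separated ML from Control, as 2.17% of genes did upward and 2.86% downward. The members split, 6 lying below 0 and 4 above, with a median of -0.23 against -0.05 over all genes, and 52.9% of all genes lay below 0. Stab2 had the lowest p at -0.63 (SE 0.36; edgeR adjusted p 0.366), with a 95% interval of -1.42 to 0.15. Stab1 was at -1.0 (SE 0.58; edgeR adjusted p 0.376), averaging 20.7 ± 10.4 CPM (SD, n = 3) in ML and 41.4 ± 29.3 CPM (SD, n = 4) in Control. Dnase1l3 was at -0.54 (SE 0.38), Lyve1 at -0.35, Kdr at -0.26 and Pecam1 at -0.21. Clec4g was at 0.65 (SE 0.49), Gpr182 at 0.56 (SE 0.36) and Fcgr2b at 0.28 (SE 0.27), and Oit3 was at 0.00.

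**Figure D2:**
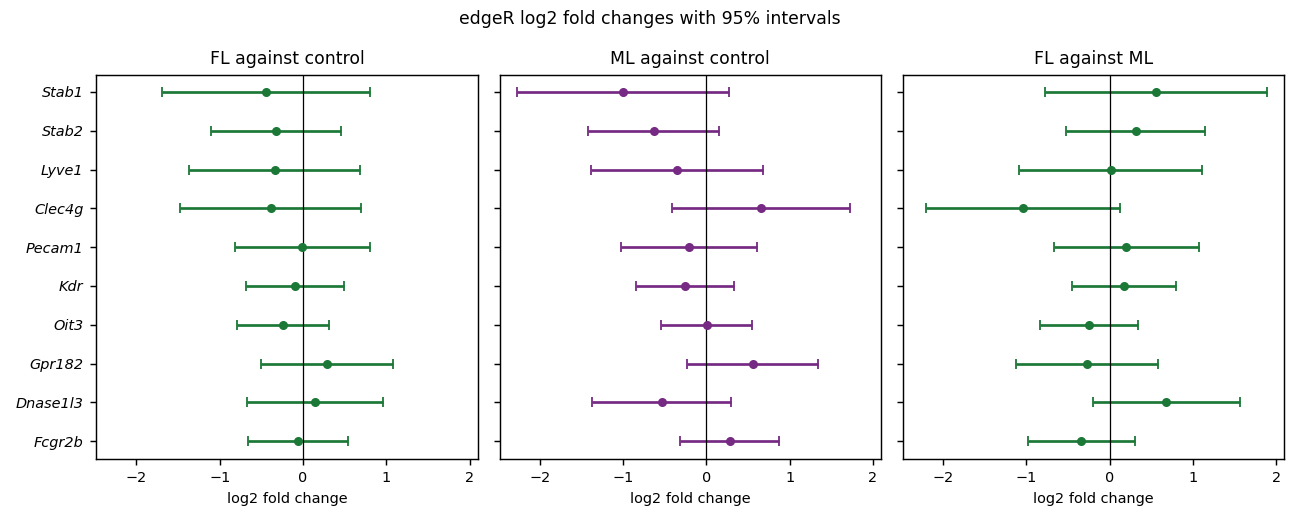
The edgeR log2 fold change of each gene (points) with its 95% interval (bars) for FL against control, ML against control and FL against ML. Every interval spans 0, from -2.27 to 0.27 for Stab1 in ML against control to -0.55 to 0.55 for Oit3.

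The ML values moved with the libraries that stood apart. Without ML 9 alone, Clec4g was at -0.31. Without Control 1 and ML 9, Stab1 was at -1.77 (edgeR adjusted p 0.0986) and Stab2 at -1.11 (0.0954), while Clec4g was at 0.02, Gpr182 at -0.09 and Fcgr2b at 0.10. After each library's trend on exon length and GC content was taken out, Stab1 was at -0.17 and Stab2 at -0.06, Kdr turned to 0.20 and Pecam1 to 0.15. With a surrogate variable, Clec4g turned to -0.48, Lyve1 to 0.26, Pecam1 to 0.41 and Dnase1l3 to 0.11. The median of the members was 0.04 with the trend removed and 0.04 without Control 2. No member passed in any of the 20 alternatives, the lowest adjusted p being 0.0636 for Stab2 in limma-voom with sample quality weights. The part that the length trend plays in the ML differences was not tested.

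**Figure D3:**
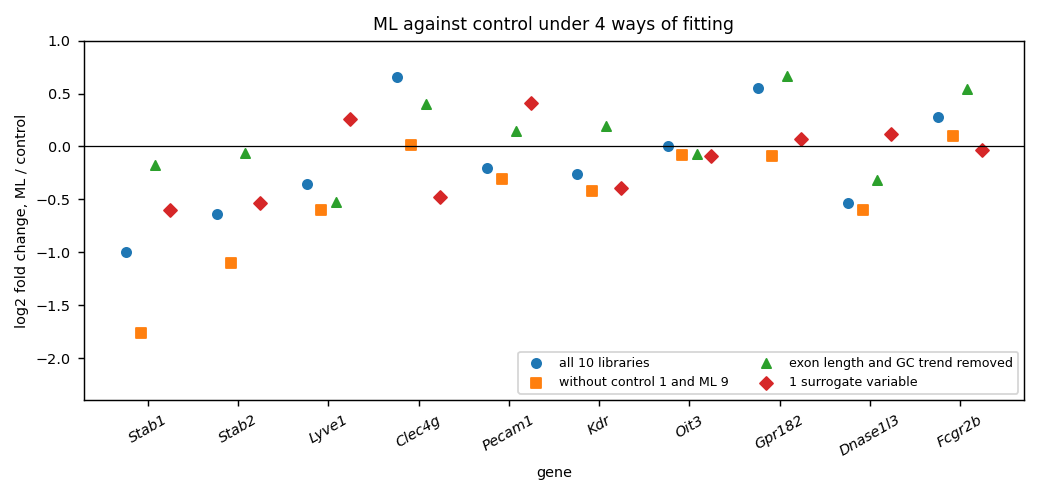
The log2 fold change of each gene in ML against control (vertical axis) with all 10 libraries, without Control 1 and ML 9, after the length and GC trend was taken out, and with 1 surrogate variable. Stab1 spans -1.77 to -0.17 over these fits, and Clec4g lies on both sides of 0, from -0.48 to 0.65.

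Between FL and ML livers, none of the 10 genes passed either. edgeR called 0 of 10 members, where 0.00675% of all genes were called. DESeq2 called 0.331% of all genes and limma-voom 0.00675%, and both called 0 members. An unadjusted edgeR p under 0.05 was reached by 0 of 10, where 20% of all genes reached it. Clec4g had the lowest p at -1.04 (SE 0.53; edgeR adjusted p 0.273), averaging 26.5 ± 3.73 CPM in FL and 54.8 ± 46.8 CPM in ML (SD, n = 3 each). It was at -0.08 without ML 9 and 0.37 with a surrogate variable. Dnase1l3 was the only member whose libraries did not overlap, with 41.8 to 47.1 CPM in FL against 20.5 to 40.9 CPM in ML, where 16.6% of all genes lay wholly higher in FL and 15.1% wholly lower. Its log2 fold change was 0.68 (SE 0.40; edgeR adjusted p 0.329), with a 95% interval of -0.20 to 1.56, and it was at 1.07 without ML 8 and -0.03 with a surrogate variable. Over the members, 6 lay above 0 and 4 below, where 52.1% of all genes lay above 0, with a median of 0.09 against 0.04 over all genes. The median was -0.12 without FL 5. With the trend on length and GC removed it was -0.31, and Stab1 turned from 0.55 to -0.29.

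The members did not move as a block over the libraries. Of the 10, 4 had their highest level in Control 2 (Stab1, Stab2, Lyve1, Pecam1) and 4 in ML 9 (Clec4g, Oit3, Gpr182, Fcgr2b). The lowest level was in ML 10 for 4 members (Stab1, Stab2, Kdr, Gpr182) and in Control 1 for 3 (Lyve1, Pecam1, Dnase1l3). The summed CPM of the 10 genes was 254 to 279 in FL, 183 to 382 in ML and 240 to 343 in Control, so the ML libraries spanned both other groups. It rested on 7526 to 8763 counts in FL, 5857 to 9448 in ML and 4217 to 14233 in Control. The 4 members with less than 5000 bp of exon, Lyve1, Clec4g, Oit3 and Gpr182, lay above their own means by an average of 0.78 on the log2 scale in ML 9, against 0.02 for the 6 longer ones. In ML 10 both were low, the shorter set at -0.26 and the longer at -0.63. In Control 1 the shorter set lay at -0.05 and the longer set at -0.49. Lyve1 with 2919 bp was low in Control 1, and Fcgr2b with 5790 bp was high in ML 9. Over the 10 members, the correlation of these deviations with log2 exon length ran from -0.71 in ML 10 to 0.65 in Control 4. It was -0.40 in both ML 9 and Control 1. The part of length in these levels was not tested.

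**Figure D4:**
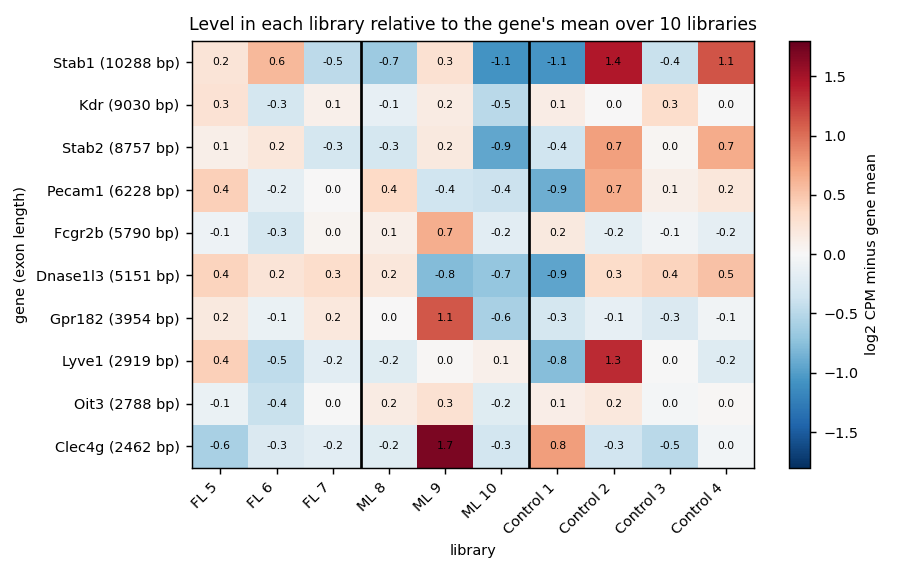
Colour and number give log2 CPM minus the gene's mean over the 10 libraries, with genes ordered from the longest to the shortest summed exon length and libraries grouped as FL, ML and Control. ML 9 is high for Clec4g (1.7) and Gpr182 (1.1) and low for Dnase1l3 (-0.8), and Stab1 runs from -1.1 in ML 10 and Control 1 to 1.4 in Control 2.

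Of the 118 genes in 15 other lists of endothelial, ligand, receptor and cell type genes, 113 were tested. edgeR, DESeq2 and limma-voom called 0 of them in each comparison. Unadjusted edgeR p-values under 0.05 numbered 3 (2.65%) for FL against control, 19 (16.8%) for ML against control and 23 (20.4%) for FL against ML, next to 3.53%, 16.1% and 20% of all genes.

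Other sinusoidal genes, such as the mannose receptor gene Mrc1 and the VEGF receptor 3 gene Flt4, had 10 of 10 tested. Their median log2 fold change was -0.21 in FL and -0.24 in ML against control, and 0.08 in FL against ML. The lowest p in FL was that of Bmp2, which encodes an endothelial signal for iron sensing in hepatocytes, at -0.65 (SE 0.34; edgeR adjusted p 1.00), and it was lowest in FL against ML too, at -0.78 (SE 0.36), or -0.39 without ML 9 and Control 1. In ML it was that of Flt4, at -1.59 (SE 0.68; edgeR adjusted p 0.301). Flt4 had 17.7, 18.6 and 12.6 CPM in FL, 10.3, 2.41 and 5.77 CPM in ML, and 2.85, 32.6, 15.9 and 23.4 CPM in Control. Its low libraries, ML 9, Control 1 and ML 10, were those in which Dnase1l3 was low, and it was at 0.04 with a surrogate variable.

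The 15 pan-endothelial genes had medians of -0.11 in FL and 0.02 in ML against control, and 0.03 in FL against ML. Without ML 9 and Control 1 they were -0.07 in ML against control and -0.09 in FL against ML. The lowest p was that of the junctional gene Esam in FL against control, at -0.55 (SE 0.34), and of the adhesion gene Icam2 in ML against control, at 1.26 (SE 0.52; edgeR adjusted p 0.301), and in FL against ML, at -1.40 (SE 0.56). Icam2 had 14.0 CPM in ML 9 and 1.99 to 5.58 CPM in the other libraries, and without ML 9 and Control 1 it was at 0.85 in ML against control and -0.53 in FL against ML. Among 9 genes of continuous and large vessels and their basement membrane, the median was -0.27 in FL and -0.30 in ML against control, and 0.25 in FL against ML. Without ML 9 and Control 1 it was -0.65 in ML against control and 0.09 in FL against ML. The connexin gene Gja4 had the lowest p in FL against control, at -0.89 (SE 0.52). The basement membrane collagen gene Col4a2 had the lowest p in ML against control, at -1.86 (SE 0.64; edgeR adjusted p 0.301), with 22.3, 12.8 and 9.49 CPM in FL, 9.82, 2.41 and 3.29 CPM in ML, and 4.67, 26.8, 19.7 and 24.3 CPM in Control. Control 1 lay among the ML libraries, and Col4a2 was at -0.54 with a surrogate variable. Cd34, a marker of continuous capillaries, had the lowest p in FL against ML, at -1.52 (SE 0.53; edgeR adjusted p 0.238), with 1.22, 0.695 and 0.932 CPM in FL, 3.39, 2.93 and 1.83 CPM in ML, and 2.22, 1.30, 0.569 and 0.852 CPM in Control. Its FL libraries lay wholly below ML, as in 15.1% of all genes.

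Of the VEGF ligands and receptors besides Kdr, 8 of 9 were tested. Their median was -0.15 in FL and -0.79 in ML against control, and 0.86 in FL against ML. Without Control 1 and ML 9 the ML median was -0.98, and it was -0.41 with the trend on length and GC removed. The ligand gene Vegfd had the lowest p in ML against control, at -1.69 (SE 0.63; edgeR adjusted p 0.301) at levels of 0.217 to 0.473 CPM in ML and 0.543 to 2.17 CPM in Control. ML lay wholly below Control, as in 2.86% of all genes, and the ML levels rested on 18, 6 and 7 counts. The co-receptor gene Nrp2 had the lowest p in FL against ML, at 0.96 (SE 0.34; edgeR adjusted p 0.238), with 9.79 to 16.4 CPM in FL and 4.75 to 7.43 CPM in ML, and it was at 0.22 with the length and GC trend removed. Its FL libraries lay wholly above ML, as in 16.6% of all genes. Nrp1, its relative, had the lowest p in FL against control, at 0.78 (SE 0.39), with 240 CPM in FL 5 and 53.8 to 113 CPM elsewhere, and it was at 0.20 without FL 5.

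The 12 endothelial transcription factor genes, among them Gata4 and Maf, had medians of -0.17 in FL and -0.37 in ML against control, and 0.15 in FL against ML. Klf4, a factor induced by shear stress, had the lowest p in FL against control, at -1.63 (SE 0.47; edgeR adjusted p 0.815), and in FL against ML, at -0.97 (SE 0.49). Klf4 had 1.04, 1.53 and 0.699 CPM in FL, 1.44, 2.09 and 2.88 CPM in ML, and 2.11, 5.53, 3.31 and 2.56 CPM in Control, all FL libraries lying below all controls, as in 2.92% of all genes. Sox18 had the lowest p in ML against control, at 0.94 (SE 0.38; edgeR adjusted p 0.301). It was likewise at 1.08 (SE 0.38) in FL against control, and at 0.14 (SE 0.41) in FL against ML. Sox18 had 3.26 to 5.15 CPM in FL, 3.13 to 4.24 CPM in ML and 1.37 to 3.05 CPM in Control. FL lay wholly above Control, as in 2.79% of all genes, and so did ML, as in 2.17%. The 10 endothelial ligands that act on hepatocytes had medians of -0.36 in FL and -0.10 in ML against control, and -0.15 in FL against ML, the FL median against control being -0.13 without ML 9 and Control 1. Bmp2, which is in this list too, again had the lowest p in FL against control. Wnt2, a WNT ligand of central vein and sinusoidal endothelium, had the lowest p in ML against control, at 0.64 (SE 0.45), and in FL against ML, at -1.46 (SE 0.50; edgeR adjusted p 0.238). It had 2.22, 2.63 and 3.32 CPM in FL, 6.62, 11.0 and 4.96 CPM in ML, and 9.40, 3.69, 3.05 and 3.21 CPM in Control, FL lying wholly below ML, as in 15.1% of all genes. With a surrogate variable Wnt2 was at 0.00 in ML against control and -0.50 in FL against ML.

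Genes of other cells that share members were set beside them. The 5 other Fc receptor genes had medians of 0.12 in FL and 0.91 in ML against control, and -0.78 in FL against ML, with Fcgr1 lowest in p in FL at 0.46 (SE 0.51). Without ML 9 and Control 1 the medians were 0.32 in ML against control and -0.05 in FL against ML. Fcgr3, the neighbour of Fcgr2b, had the lowest p in ML against control, at 1.70 (SE 0.51; edgeR adjusted p 0.301), and in FL against ML, at -1.58 (SE 0.55), with 46.3 CPM in ML 9 and 5.18 to 12.1 CPM elsewhere. Without both libraries Fcgr3 was at 0.82 in ML against control and -0.51 in FL against ML. The summed level of 10 Kupffer cell markers was 346 to 466 CPM in FL, 312 to 1392 CPM in ML and 320 to 552 CPM in Control, and ML 9 was the highest, as it was for Fcgr2b. Among them C1qb had the lowest p in ML against control, at 1.35 (SE 0.53; edgeR adjusted p 0.301), and in FL against ML, at -1.28 (SE 0.58), and Timd4 in FL against control, at -0.28 (SE 0.33). C1qb had 238 CPM in ML 9 and 32.5 to 61.1 CPM elsewhere, and without ML 9 and Control 1 it was at 0.33 in ML against control and -0.05 in FL against ML. B cell markers summed to 1.95 to 2.98 CPM in FL, 1.98 to 11.1 CPM in ML and 1.20 to 5.93 CPM in Control, with Cd79b at 1.27 (SE 0.87) in ML against control and -1.78 (SE 0.96) in FL against ML. Cd79b had 5.22 CPM in ML 9 and 0.552 and 0.713 CPM in the other ML libraries, and without ML 9 and Control 1 it was at 0.11 in ML against control and -0.05 in FL against ML. The part of these cells in the Fcgr2b values was not tested.

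Platelet markers, beside which Pecam1 can be read, summed to 2.70 to 4.60 CPM in FL, 3.10 to 14.9 CPM in ML and 2.85 to 5.52 CPM in Control. Itga2b was at -0.68 (SE 0.58) in FL against control and -1.28 (SE 0.62) in FL against ML, and Pf4 at 0.92 (SE 0.58) in ML against control. Both were highest in ML 9, where Itga2b gave 188 of the 228 platelet marker counts. Ppbp, the third marker tested, was the 1 that lay below 0 in ML against control. It had 4 counts in ML 9 and 5 to 21 in the other libraries, not scaled to library size. ML 9 had the lowest TMM factor, 0.577, so these raw counts do not show that Ppbp was lowest there. Without ML 9 and Control 1 Itga2b was at -0.12 in FL against ML and Pf4 at 0.20 in ML against control. Pf4 turned to -0.19 with a surrogate variable. Lymphatic endothelium shares Lyve1. Its markers Pdpn and Ccl21a had 0 counts in all 10 libraries, which allows up to 3 counts in each. Mmrn1, another of its markers, was detected, with 63 counts in ML 8 and 5 to 25 in the other libraries. Prox1, which hepatocytes express as well, stood at 0.90 (SE 0.55) in FL against control, at -0.69 (SE 0.56) in ML against control and at 1.59 (SE 0.61) in FL against ML.

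Stellate cell and fibroblast markers summed to 240 to 334 CPM in FL, 285 to 576 CPM in ML and 334 to 377 CPM in Control, with Col3a1 at -0.65 (SE 0.46) in FL against control, Des at 1.73 (SE 0.70) in ML against control and Pdgfrb at 1.45 (SE 0.53) in FL against ML. Des had 30.2 CPM in ML 9 and 2.48 to 5.94 CPM elsewhere, and it turned to -0.27 without ML 9 and Control 1. The 10 stellate and fibroblast markers had a median of -0.33 in ML against control, with 7 below 0 and 3 above. Their median was -0.23 in FL against control and -0.02 in FL against ML. T and NK cell markers summed to 2.81 to 4.98 CPM in FL, 3.41 to 10.8 CPM in ML and 2.67 to 5.12 CPM in Control, with Nkg7 at -0.50 (SE 0.73) in FL against control and Cd3d at 2.65 (SE 0.77) in ML against control and -2.95 (SE 0.87) in FL against ML. Cd3d had 5.61 CPM in ML 9 and 0.814 and 0.620 CPM in the other ML libraries, and without ML 9 and Control 1 it was at 1.37 in ML against control and -1.28 in FL against ML. Of the 5 T and NK genes tested, 3 lay above 0 and 2 below in ML against control, with a median of 0.86. Cd3e had 5 counts in ML 9, where Cd3d had 86. Cholangiocyte markers summed to 32.8 to 68.6 CPM in FL, 21.4 to 67.1 CPM in ML and 28.7 to 55.7 CPM in Control. Sox9 was at 1.10 (SE 0.52) in FL against control and 1.59 (SE 0.58) in FL against ML. Krt7 was at 2.08 (SE 0.55) in ML against control. Of the 5 cholangiocyte markers, 4 lay above 0 in FL against control, 3 in ML against control and 2 in FL against ML. Their medians were 0.58, 0.54 and -0.19. Sox9 lay below 0 in ML against control, at -0.49 (SE 0.54), and Krt7 lay below 0 in FL against ML. Krt7 had 3.05, 1.96 and 0.775 CPM in ML, and it was at 1.55 in ML against control without ML 8. Sox9 was at 0.66 in FL against control without FL 5. Among hepatocyte markers Serpina1e was at 0.84 (SE 0.51) in FL against control (0.56 without ML 9 and Control 1), and Ttr at 0.61 (SE 0.31) in ML against control and -0.80 (SE 0.34) in FL against ML. Of the 7 hepatocyte markers, 3 lay above 0 and 4 below in each comparison. Their medians were -0.003 in FL against control, -0.07 in ML against control and -0.17 in FL against ML. Without ML 9 and Control 1 Ttr was at 0.28 in ML against control and -0.47 in FL against ML, and with the length and GC trend removed at 0.02 in ML against control and -0.09 in FL against ML.

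Likeness of profile was measured as the root mean square difference, over the 10 libraries, between a gene's centred log2 CPM and the mean centred profile of the members. That mean profile ran from -0.48 in ML 10 and -0.31 in Control 1 to 0.32 in ML 9 and 0.40 in Control 2. Of 11091 genes compared, the 6 nearest were Il4ra, Psmc2, Edc3, Mindy1, Ppp1r18 and Cmtm3, with differences of 0.12 to 0.14, where the median gene was at 0.59. Il4ra, which encodes a chain of the interleukin-4 receptor, had 26.9, 23.7 and 22.5 CPM in FL, 20.4, 35.3 and 16.1 CPM in ML, and 18.7, 35.6, 25.7 and 28.5 CPM in Control. Il4ra was chosen for its likeness to the member mean, and it too was highest in Control 2 and ML 9 and lowest in ML 10 and Control 1. The members themselves lay from 0.26 (Oit3) to 0.74 (Clec4g) from the mean of the other members, with Stab1 at 0.70.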

How the data were processed

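Directional, paired-end libraries were prepared from polyadenylated liver RNA, per the labels' protocols. The authors deposited raw counts of reads per gene, and the submitters' processing notes name STAR, featureCounts and GRCm38. No source used here gives the versions, the strand setting or the annotation release. Symbols, coordinates and exon lengths came from GENCODE M21 on GRCm38, which matched 45229 of 46071 identifiers, and promoters from RefSeq on GRCm38.p6.

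Tests used edgeR 4.0.16 in R 4.3.3: TMM scaling, a low-count filter (filterByExpr, minimum count 10), 1 coefficient per group over all 10 libraries, a robust quasi-likelihood F test with 7 residual degrees of freedom, and Benjamini-Hochberg adjustment over 14820 genes at 0.05, two-sided. SE is the log2 fold change divided by the square root of F. FL and ML comparisons share the controls. Without labels for separate animals, p-values measure the spread between libraries, which may be technical. Centred levels used log2(CPM + 0.1). Alternatives used DESeq2 1.42.0, limma 3.58.1 and sva 3.50.0. Procedures were tested on simulated data. Members and lists were chosen with earlier results of these data known. Every member was reported, and from each other list the gene with the lowest p in a comparison, except 1 that is not reported here. Mrc1, Gata4, Maf, Alb, Pdpn, Ccl21a, Mmrn1, Ppbp and Cd3e were named besides.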

Additional observations from a re-analysis of the deposited data

Results flagged for a closer look

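No member had a control library standing apart by Dixon's criterion. Of the 44 genes checked, members included, 5 did, and chance flags about 1 in 20 groups. Most of the 5 were flagged for the same library, so they are not independent. Control 1 stood apart from the other controls for Icam2 (5.58 CPM), Krt7 (0.798 CPM), Mrc1 (66.6 CPM, where the other controls had 26.4 to 32.4) and Wnt2 (9.40 CPM), and Control 4 for Sox18 (3.05 CPM).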

How the results depend on the processing

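Calls of members were 0 of 10 in each comparison under all 20 alternatives, which were DESeq2, limma-voom, other scaling factors, no filter on low counts, the groups compared only, each library left out, Control 1 and ML 9 left out together, 1 surrogate variable, sample quality weights and the length and GC trend taken out. The lowest adjusted p of a member was 0.721 in FL against control, 0.0636 in ML against control and 0.161 in FL against ML. The median log2 fold change of the members ran over them from -0.24 to -0.05 in FL against control, from -0.36 to 0.04 in ML against control and from -0.31 to 0.29 in FL against ML. The value of -0.31, with the length and GC trend removed, lay further from the reported 0.09 than the SD of 0.35 between library medians, and the cause was not tested. Of 200 member values per comparison, the sign differed from the reported one for 16 in FL against control, 28 in ML against control and 20 in FL against ML. Counting only values larger than their SE in both fits, Clec4g turned under the surrogate variable, to -0.48 in ML against control and 0.37 in FL against ML, as did Cd79b, to -0.74 in ML against control and 0.81 in FL against ML. No paired analysis was possible because each replicate number, from 1 to 10, was used once and no 2 groups share one. Over the comparisons the 95% intervals reached -2.27 and 1.89 on the log2 scale for Stab1, and -0.83 and 0.55 for Oit3. These 10 libraries are compatible with any difference within a gene's own interval. The smallest difference detectable for each gene was not computed.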
